A study of Homo sapiens with 3 samples.

Results

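The RNA of DU145 cells transfected with TSPAN18 siRNA 1 was set against that of the same cells transfected with a control siRNA. DU145 is a human prostate cancer line, originally grown from a brain metastasis, that proliferates without androgen. Genes were taken when their mean over these 2 libraries was at least 1 CPM, a read count scaled to the total of its library, which left 14123 of the 23813 genes listed in both tables. The genes just inside and just outside this limit had means of 1.00006 and 0.99998 CPM. The series holds 3 libraries and 25035 listed genes in all. Each library came from DU145 cells given 75 nM of 1 siRNA with Lipofectamine RNAiMAX for 48 h: the control siRNA, TSPAN18 siRNA 1 or TSPAN18 siRNA 2. The siRNA 2 library is given beside the others to show where siRNA 1 stood apart. With 1 library a side there is no test and no replicate check, and nothing says whether the libraries came from separate cultures. Differences are given as sizes. A 95% interval of a gene's percentage of the control covers counting error only. An interval of a share of genes takes genes as independent.

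TSPAN18 is a tetraspanin, a small protein that crosses the membrane 4 times and organises other membrane proteins into lateral clusters. A small interfering RNA loads into the Argonaute complex, which cleaves messages that pair fully with the guide strand. The same complex can also lower messages that pair with the guide's seed alone, most often through sites in the 3′ untranslated region (3′ UTR). Effects through the seed depend on the sequence of each siRNA, which is why studies use more than 1 siRNA per target. The study's title places TSPAN18 with calcium signalling through STIM1 in bone metastasis.

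The libraries held between 29766559 and 30058731 recovered read pairs, so that 1 pair is worth between 0.0333 and 0.0336 CPM. Mitochondrially encoded genes took 7.27% of the control library and 7.16% of the siRNA 1 library. The line's epithelial keratins were present in all 3 libraries, with KRT8 at 464, 417 and 384 CPM in the control, siRNA 1 and siRNA 2 libraries and KRT7 at 456, 333 and 361 CPM. Of the 8 epithelial markers 7 passed the filter, and their summed level was 1387, 1146 and 1144 CPM. Of 9 fibroblast markers only COL1A1 passed the filter, at 7.25, 3.18 and 5.98 CPM. None of the 7 endothelial and none of the 8 blood markers passed, with summed levels of 1.30, 1.40 and 1.75 CPM and of 1.40, 0.435 and 0.638 CPM. All 4 listed neuronal markers of 5 passed, at a summed 13.6, 14.3 and 15.5 CPM. In such bulk libraries fewer cells of a kind and less RNA per cell cannot be told apart.

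The targeted message was low with siRNA 1. TSPAN18 stood at 16.9 CPM under the control siRNA, at 1.37 CPM under siRNA 1 and at 1.51 CPM under siRNA 2, so both TSPAN18 libraries lay far below the control and close to each other. The siRNA 1 value is 8.09% of the control (exact interval 5.74 to 11.1) and rests on 41 read pairs against 509. Of all 14123 genes TSPAN18 had the lowest log2 ratio. That ratio was −2.92 on the log2(CPM + 1) scale, which is used for every log2 ratio given here and understates the change of low genes.

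Far more genes were lower than higher with siRNA 1. In all, 600 genes (4.25% of the 14123) were at least 2-fold lower and 96 (0.68%) were at least 2-fold higher. At a size of 1.5-fold the counts were 2138 lower (15.1%) and 626 higher (4.43%). Counting error alone leaves most of these sizes in place: 445 of the 600 had an interval wholly below 50% of the control, and 64 of the 96 had one wholly above 200%. Across the 14123 genes the median log2 ratio stood at −0.10, with quartiles of −0.40 and 0.17, while the siRNA 2 library had a median of 0.00 against the same control. Median-of-ratios scaling moved the siRNA 1 median to 0.01 and gave 433 lower and 154 higher genes. The share of higher genes among those at least 2-fold away was 13.8% as deposited and 26.2% with that scaling. With the trend by GC content removed, described further on, the counts were 283 lower and 131 higher, a share of 31.6%.

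**Figure D1:**
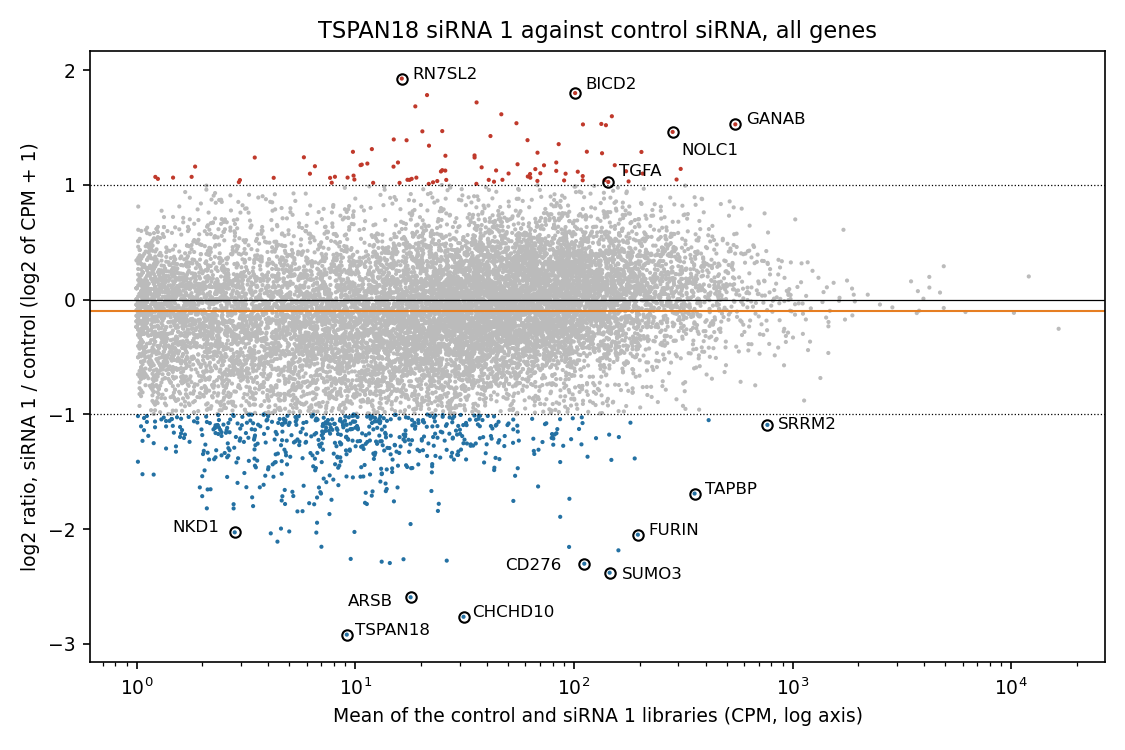
Log2 ratio of siRNA 1 to control (log2 of CPM + 1) against the mean CPM of the 2 libraries on a log axis, 1 point per gene for 14123 genes. Blue and red points are at least 2-fold lower (600) and higher (96), dotted lines mark 2-fold, and the orange line is the median of all genes at −0.10.

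The plot of ratio by level shows that the lower genes were mostly of modest abundance. Of the genes with means between 4.19 and 15.4 CPM, 9.28% were at least 2-fold lower, while of those above 89.7 CPM 0.779% were. The corresponding shares of higher genes were 0.637% and 0.814%.

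After TSPAN18, the next lowest genes were CHCHD10, ARSB and SUMO3. CHCHD10, which resides between the mitochondrial membranes, stood at 55.3 CPM under the control siRNA, at 7.29 CPM under siRNA 1 and at 16.0 CPM under siRNA 2, and other genes overlap 18.1% of its exons. ARSB, the lysosomal enzyme that removes sulfate from dermatan and chondroitin sulfate, was at 31.5, 4.38 and 26.3 CPM. SUMO3, a ubiquitin-like modifier, was at 245, 46.3 and 175 CPM. ARSB and SUMO3 were thus low in the siRNA 1 library alone, whereas CHCHD10 was low in both TSPAN18 libraries.

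Genes of cell polarity, protein processing and polyamine synthesis were also among the 20 lowest. CELSR2, a cadherin of the planar cell polarity pathway, was at 44.1 CPM under the control siRNA, at 8.32 CPM under siRNA 1 and at 21.7 CPM under siRNA 2. FURIN, the protease that cuts many proproteins in the Golgi, was at 317, 75.8 and 247 CPM. SRM, which makes spermidine for polyamine supply, was at 137, 36.2 and 101 CPM, and EIF5A2, a translation factor that carries a modification made from spermidine, was at 11.2, 2.17 and 7.42 CPM. The siRNA 2 value of each lay between the siRNA 1 and the control values. DPYSL5, TTYH2, LARGE2, AIF1L, SLC29A2 and CAMSAP3 completed the 20 lowest together with the genes described below. These 20 stood between 8.09% and 26.4% of the control, and all 20 stayed at least 2-fold lower with the GC trend removed.

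The 20 highest genes stood between 259% and 425% of the control. Of these 20, 15 were also at least 2-fold higher with siRNA 2. The 96 genes at least 2-fold higher with siRNA 1 had a median siRNA 2 log2 ratio of 0.87. The ratios of both siRNAs share the control library. BICD2, an adaptor that links cargo to the dynein motor, was at 44.7 CPM under the control siRNA, at 158 CPM under siRNA 1 and at 86.2 CPM under siRNA 2. ATF1, a cAMP-responsive transcription factor, was at 22.4, 70.7 and 49.0 CPM. B4GALT1, a Golgi galactosyltransferase, was at 68.2, 199 and 155 CPM. For all 3, the siRNA 1 value was the highest and the siRNA 2 value the next.

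NOLC1 and VOPP1 were higher mainly with siRNA 1. NOLC1, a nucleolar chaperone of small nucleolar ribonucleoproteins, was at 150.3 CPM under the control siRNA, at 416 CPM under siRNA 1 and at 208 CPM under siRNA 2, and VOPP1, a vesicular protein, was at 56.2, 164 and 82.3 CPM. NTN4, a netrin of the basement membrane, was at 7.82, 22.2 and 11.4 CPM. The list of 20 also held 5 zinc finger genes, ZNF267, ZNF664, ZNF678, ZNF680 and ZNF714, with log2 ratios between 1.39 and 1.78. The remaining members were GANAB, G3BP2, GXYLT1, ZW10, FOPNL, FAM173B, SETD7, HABP4 and RN7SL2. RN7SL2, the RNA of the signal recognition particle, was at 6.22, 26.4 and 6.58 CPM, but it has many near-identical copies and is uncertain, as is HABP4, whose exons are overlapped over 27.0% of their length by other genes.

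To see which genes differed with siRNA 1 alone, all 3 libraries were used. A gene counted when the siRNA 1 library was at least 2-fold away, in the same direction, from both the control and the siRNA 2 library. This held for 189 lower genes (1.34%) and 8 higher genes (0.0566%). Of the 600 genes lower than the control, 354 had a siRNA 2 value within 1.5-fold of the control, which both ratios share. Among the 15 genes that stood farthest below both libraries, 14 had such a siRNA 2 value.

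Several of these 15 code for proteins of membranes and of immune recognition. CD276, an immune checkpoint ligand of the B7 family, was at 186 CPM under the control siRNA, at 37.0 CPM under siRNA 1 and at 234 CPM under siRNA 2. SHISA5, an endoplasmic reticulum protein that p53 induces, had 263, 57.0 and 252 CPM. SERPING1, the inhibitor of complement component C1, was at 12.1, 1.94 and 11.6 CPM. In each case the control and siRNA 2 libraries lay close together and the siRNA 1 library far below them.

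The same held for a contractile and a lysosomal membrane gene. MYL9, the regulatory light chain of non-muscle and smooth muscle myosin, was at 156 CPM under the control siRNA, at 34.2 CPM under siRNA 1 and at 127 CPM under siRNA 2. TMEM9B, a glycosylated lysosomal membrane protein, was at 28.2, 5.08 and 31.2 CPM. The others were ARSB, SUMO3, FURIN, TTYH2, SLC29A2 (a nucleoside transporter), SLC16A13 (a monocarboxylate transporter), TMEM63B (a mechanically gated channel), TTC22, ZNF385A and FAM210B. All 15 stood between 13.9% and 31.7% of the control.

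**Figure D2:**
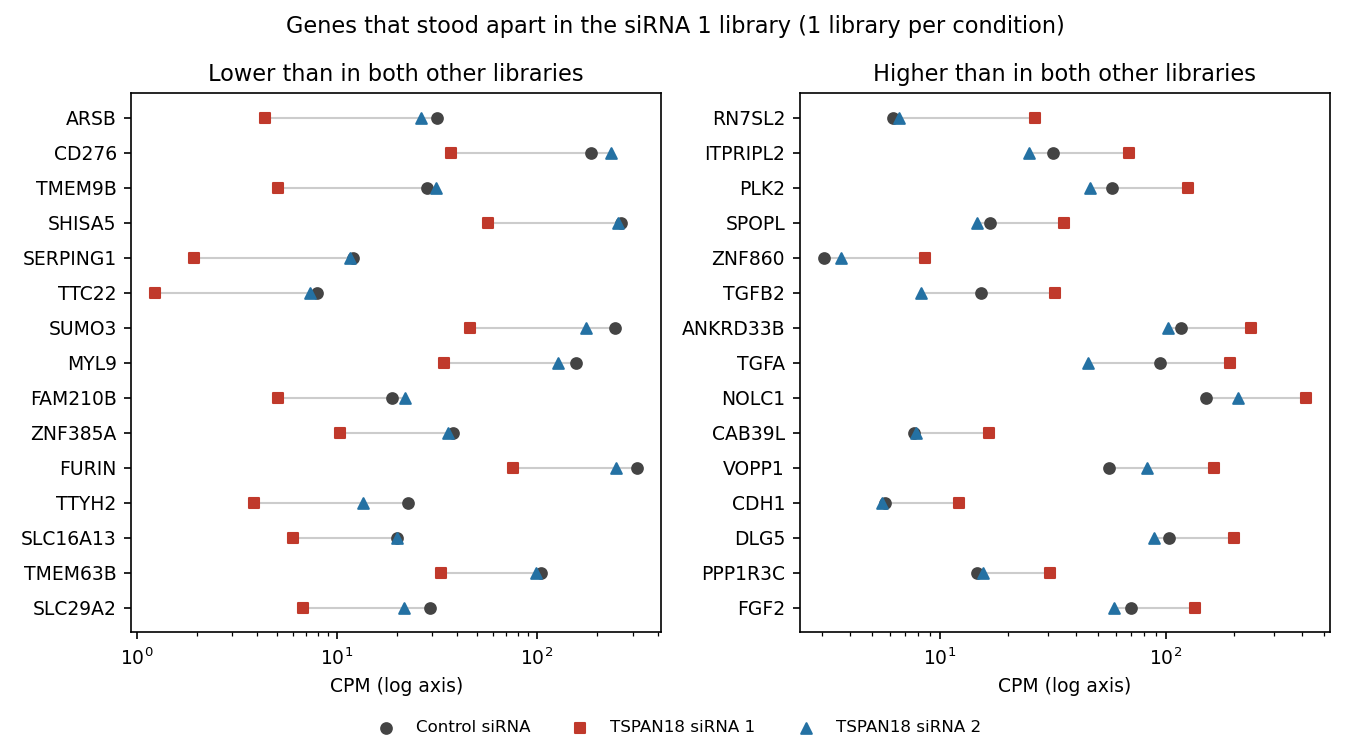
CPM on a log axis in the control (circles), siRNA 1 (squares) and siRNA 2 (triangles) libraries for the 15 genes farthest below (left) and the 15 farthest above (right) both other libraries. Each point is 1 library, and the red squares lie outside the pair of other points for all 30 genes, which the choice of genes fixes.

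On the higher side, 3 of the 15 genes farthest above both libraries were growth factors. Only 8 genes met the 2-fold rule against both libraries, so not all of these 15 did. TGFA, a ligand of the epidermal growth factor receptor, was at 94.3 CPM under the control siRNA, at 193 CPM under siRNA 1 and at 45.2 CPM under siRNA 2, so that the siRNA libraries lay on opposite sides of the control. FGF2, the basic fibroblast growth factor, was at 69.8, 135 and 58.9 CPM. TGFB2, a transforming growth factor, was at 15.2, 32.2 and 8.26 CPM, and other genes overlap 26.6% of its exons. Of the 22 measured members of the growth factor list, 5 were 1.5-fold or more above the control (22.7%, against 4.43% of all genes) and 2 were as far below it. The median of the list was −0.02, and 0.16 with the GC trend removed. EREG and CSF1 completed the 5 and were chosen after their values were seen. EREG, another ligand of the epidermal growth factor receptor, was at 103, 191 and 70.3 CPM and CSF1, the macrophage growth factor, at 196, 323 and 137 CPM. All 5 were lower with siRNA 2 than in the control. The growth factor CSF2 went the other way, at 15.9, 6.45 and 2.96 CPM.

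Other genes that stood above both libraries included PLK2, a kinase of the centriole cycle, at 58.0 CPM under the control siRNA, at 125 CPM under siRNA 1 and at 46.3 CPM under siRNA 2. CDH1, the cadherin of epithelial junctions, was at 5.72, 12.2 and 5.54 CPM, at 213% of the control (177 to 257). On the log2(CPM + 1) scale it fell short of 2-fold above the control. The list went on with ITPRIPL2, SPOPL, ANKRD33B, CAB39L, DLG5, PPP1R3C and ZNF860, and also held NOLC1, VOPP1 and RN7SL2. With the GC trend removed, 10 of the 15 were at least 2-fold above the control.

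Genes lower with siRNA 1 were also compared by the letters of their 3′ UTRs, since seed pairing acts there. Every 7-base sequence that 100 or more genes hold in the 3′ UTR, 15634 in number, was ranked over 11992 genes with an annotated 3′ UTR. The rank was the difference in median log2 ratio between genes with and without the sequence. Ranked as deposited, all of the 10 lowest sequences held at least 5 G or C bases, led by TCCGCGG. With the trend removed, TCACCAA ranked 1 and the overlapping TTCACCA ranked 6, and together they spell TTCACCAA. Genes with TCACCAA lay 0.19 below other genes on the log2 scale with siRNA 1 and 0.02 below with siRNA 2. Ranks 2 to 5 with the trend removed went to other sequences, with siRNA 1 differences of −0.187, −0.166, −0.161 and −0.157. Ranks 1 and 6 had −0.193 and −0.141, so rank 1 did not stand far apart from rank 2. The sequences of ranks 2 to 5 were held by 108, 121, 125 and 129 genes, those of ranks 1 and 6 by 1118 and 1853. The sequences of ranks 1 and 6 had been found earlier in the same libraries, so their rank here is not independent evidence. Only the strand of the message was searched.

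The sequences below are 3′ UTR windows of strongly lower genes, read by transcript from GENCODE 29 and shown because they carry the match, with the matching bases in capitals.
ARSB: ccaccattgtgTTCACCAAtgcttggaaca
CD276: ccctgccttatTTCACCAAagacacgatgc
TMEM9B: accttgttgatTTCACCAActgttgctgga
FURIN: gcactttttaaTTCACCAAagtattttttt
EIF5A2: tctgtatacatTTCACCAAtttattaacag
MYL9: caaatgcaagcTCACCAAggtcccctctc
SRM: ttgcccctcacTCACCAAacacgtgtatt
PCNA: agtcttttctgTCACCAAatttgtacctc
The target itself holds the 8 bases in its coding sequence, not in its 3′ UTR.
TSPAN18: cccgagaattcTTCACCAAggagctcacca
The 8 bases occur in 6.04% of coding sequences and in 2.99% of 3′ UTRs of these genes. None of 2370 mature human microRNAs in the RefSeq table has a seed (bases 2 to 8) complementary to TCACCAA or TTCACCA. Other pairing of microRNAs was not searched, and a part of microRNAs in these ratios was not tested. The sequence of siRNA 1 was not given in the sources used here, so pairing with these bases was not tested.

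The ratios were ordered by how much of the sequence a 3′ UTR held, in the same libraries that picked it out. Genes with no match, 9594 in number, had a median log2 ratio of −0.09, and 3.91% of them were at least 2-fold lower. The 2040 genes with a match of 7 bases only had a median of −0.13 and a share of 6.86% (exact binomial interval 5.80 to 8.05). The 358 genes with the 8 bases had a median of −0.29 and a share of 12.01% (8.83 to 15.8). With siRNA 2 the medians of the same groups were −0.01, 0.04 and 0.07. With the GC trend removed the medians were 0.03, −0.09 and −0.28 for siRNA 1 and 0.00, −0.02 and −0.01 for siRNA 2, so the siRNA 1 order stayed and the siRNA 2 medians lay close together. The 18 genes with more than 1 copy of the 8 bases had a median of −0.44.

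**Figure D3:**
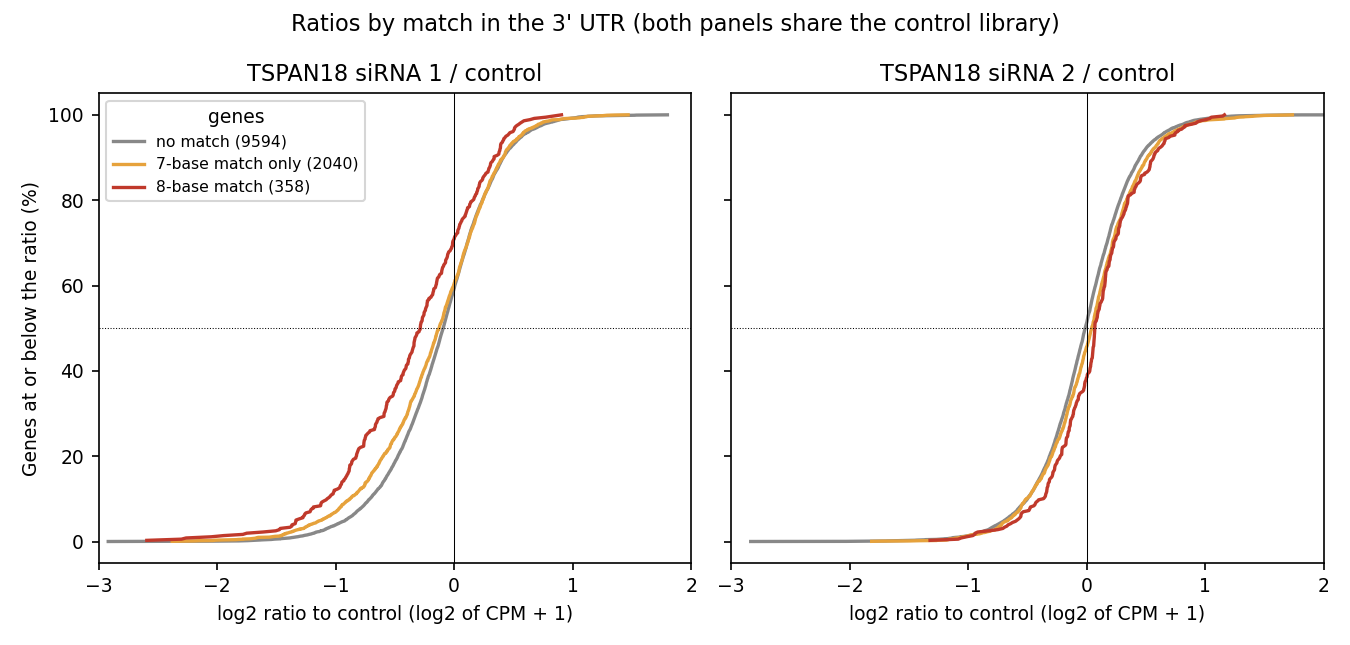
Cumulative share of genes (%) against the log2 ratio to control for siRNA 1 (left) and siRNA 2 (right), by match in the 3′ UTR: none (9594 genes), 7 bases only (2040) and 8 bases (358). The red curve lies left of the grey one with siRNA 1, with medians of −0.29 and −0.09, while with siRNA 2 the medians are 0.07 and −0.01, which become −0.01 and 0.00 with the GC trend removed. The axis ends at −3, and both panels share the control library.

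The difference was larger in short 3′ UTRs. Among 3′ UTRs of 200 to under 1000 bases, the 40 genes with the 8 bases had a median of −0.78 and 32.5% (18.6 to 49.1) were at least 2-fold lower, against −0.15 and 3.92% of 4154 genes without a match. At 1000 to under 2000 bases the medians were −0.47 for 55 genes and −0.05 for 2077. At 2000 to under 4000 bases they were −0.29 for 111 genes and 0.07 for 1448. The length classes were chosen after the data were seen. In coding sequences the order was weaker: among genes with no match in the 3′ UTR, 3.27% of 6758 were lower without a coding match, and 6.12% of 539 with 1 copy of the 8 bases there.

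The shares of genes with a match are a description, since the sequence was itself chosen by the ratios of these libraries. Their intervals take genes as independent and cover neither read counting error nor variation between cultures. Of 173 genes with a 3′ UTR that stood at least 2-fold below both other libraries, 28 held the 8 bases (16.2%, 11.03 to 22.5) and 85 held any match (49.1%, 41.5 to 56.8), against 2.99% and 20% of all genes. Of 558 genes at least 2-fold below the control, 32.8% held any match. Of 88 genes at least 2-fold above it, 0 held the 8 bases and 19.3% held any match. Conversely, most genes with a match were less than 2-fold away from the control, and SERPING1, SLC16A13, TMEM63B, SLC29A2 and TTYH2 were among the lowest without any match in the 3′ UTR used.

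Ratios also followed the base composition of the transcripts. Genes were split by GC content into 5 groups of equal size. From the lowest to the highest GC content, the median log2 ratio was 0.16, 0.01, −0.09, −0.23 and −0.36. The share at least 2-fold lower was 0.851%, 1.35%, 3.01%, 5.82% and 10.2% in the same order. Across 14101 genes of this 1 pair of libraries, the ratio and GC content had a Spearman rank correlation of −0.425, given as a description. The median for siRNA 2 also went from 0.19 to −0.17. Of the 600 lower genes 268 stayed at least 2-fold lower with this trend removed, and of the 96 higher genes 67 stayed higher. The part of GC content in any single result was not tested, and values with the trend removed are given beside the gene lists.

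**Figure D4:**
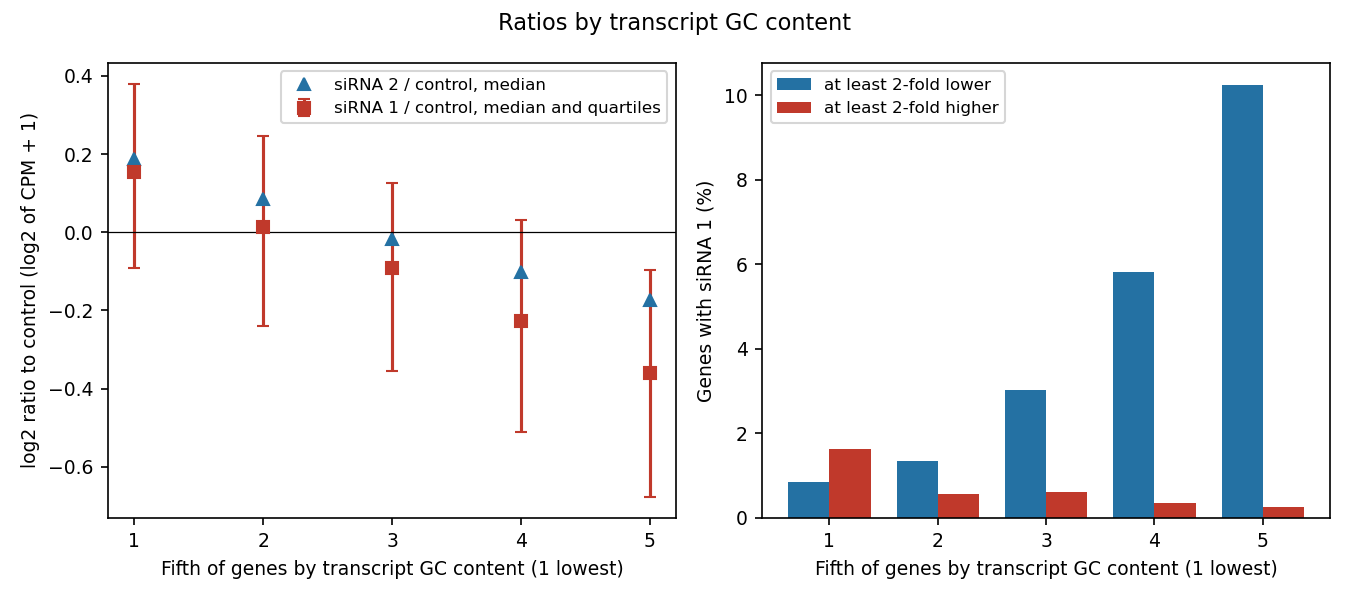
Left, median log2 ratio to control with quartiles for siRNA 1 and the median for siRNA 2 in 5 equal groups of genes by transcript GC content. Right, share of genes (%) at least 2-fold lower or higher with siRNA 1. The siRNA 1 median goes from 0.16 in the lowest group to −0.36 in the highest, and the share of lower genes from 0.851% to 10.2%.

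Gene lists were read against all genes, whose median was −0.10 and of which 15.1% were at least 1.5-fold lower. Of 52 lists, 24 had a median below that of all genes and 28 one above it. With median-of-ratios scaling the Notch, tetraspanin, heparan sulfate and Wnt lists had medians of −0.35, −0.29, −0.27 and −0.23. This scaling divides each library by a single factor, so all genes shift the same way, and the median of all genes became 0.01. The medians of the calcium, replication and growth factor lists, among others, went from below to above 0 with it, at 0.04, 0.05 and 0.04. The plot of lists shows each median and share as deposited.

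**Figure D5:**
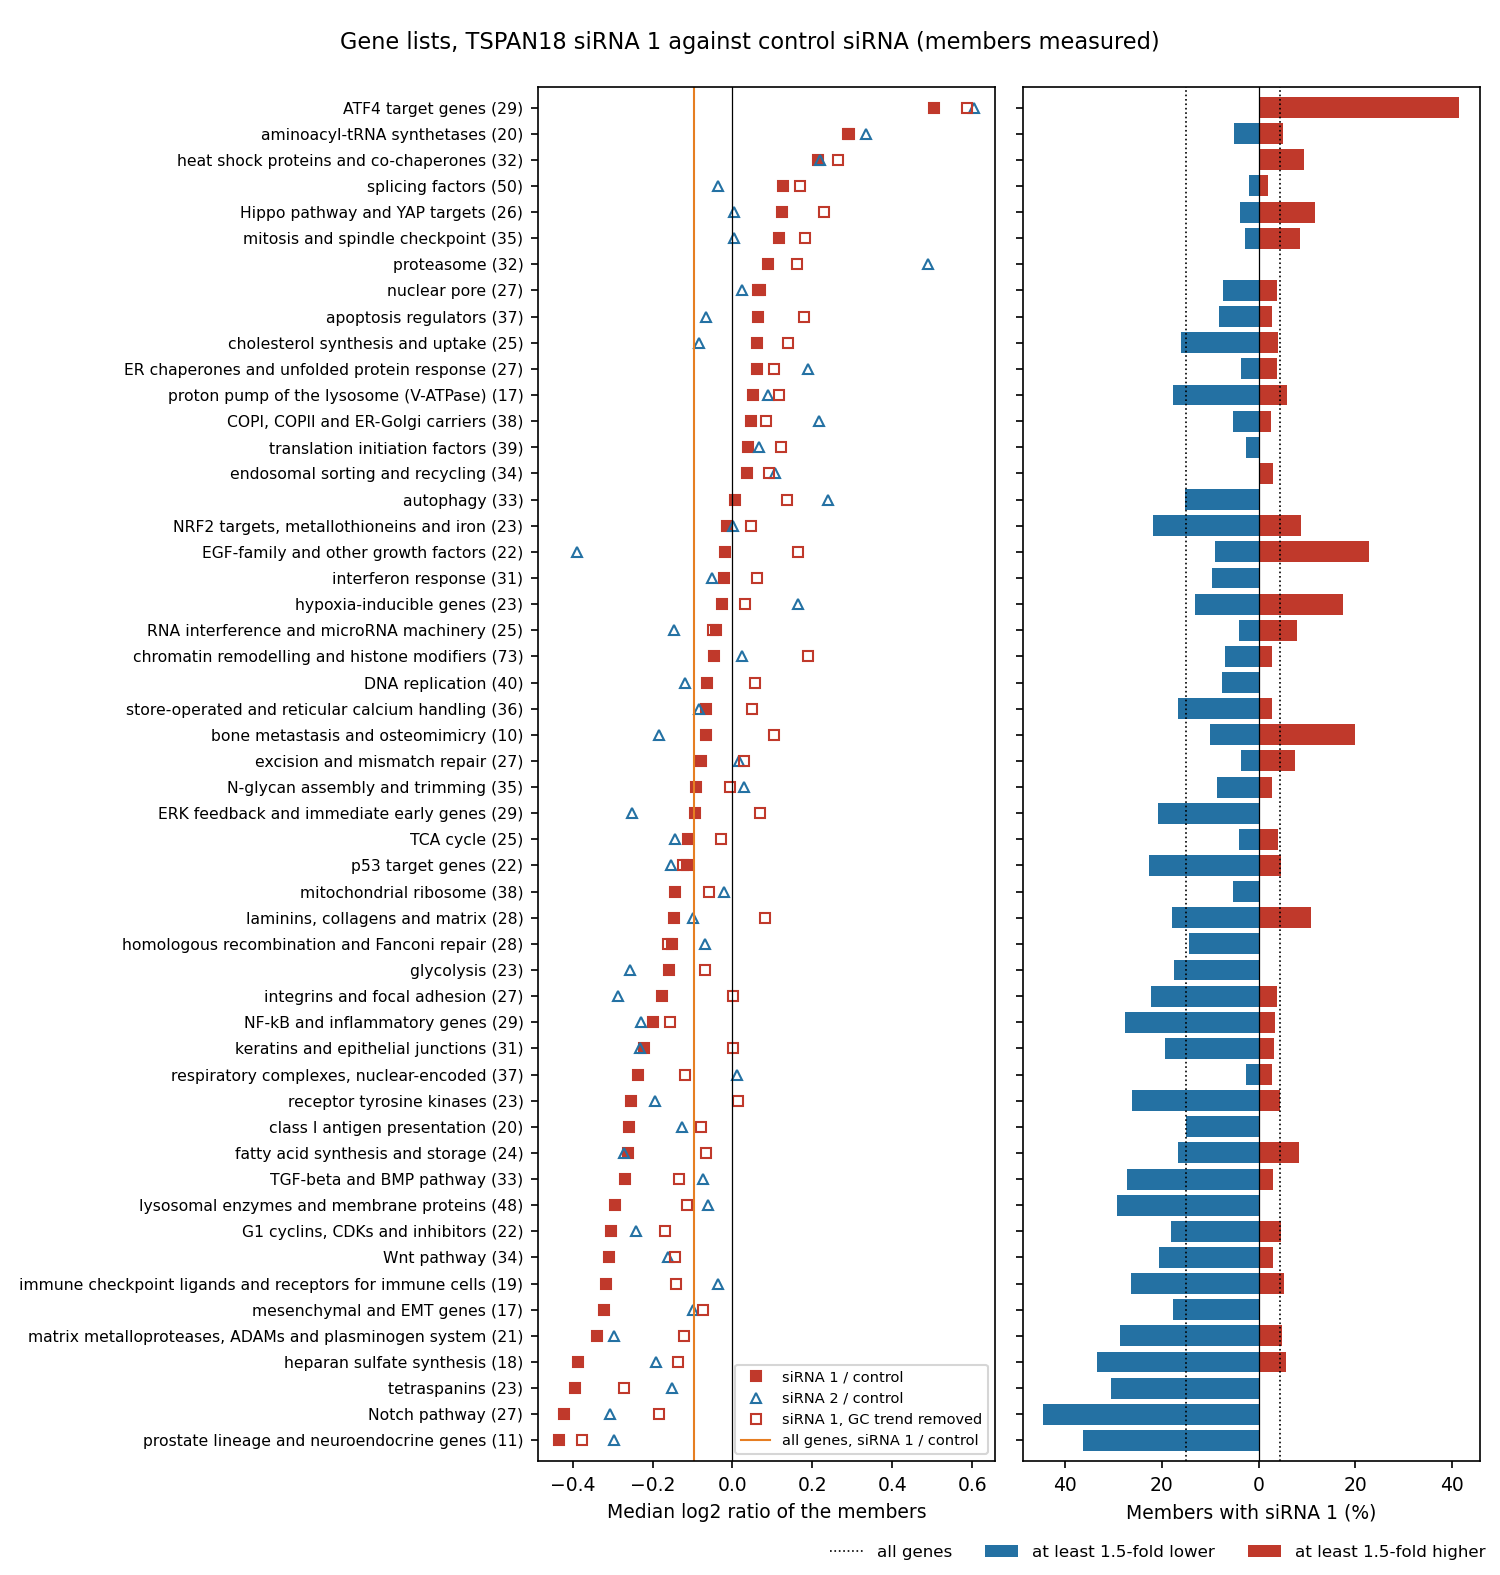
Left, median log2 ratio of the measured members of each gene list for siRNA 1, for siRNA 1 with the GC trend removed and for siRNA 2, with the median of all genes (−0.10) as an orange line. Right, share of members (%) at least 1.5-fold lower (to the left) and higher (to the right) with siRNA 1, with dotted lines at the shares of all genes, 15.1% and 4.43%. The ATF4 list lies highest, at 0.50, and the Notch list has the largest share of lower members, 44.4%.

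Notch signalling, in which ligands on 1 cell activate receptors on the next and switch on HES and HEY repressors, had many lower members. Of 27 measured members, 12 were at least 1.5-fold lower (44.4%) and none was at least 1.5-fold higher. The median was −0.42, and −0.18 with the GC trend removed. The ligand JAG2 stood at 37.9 CPM under the control siRNA, at 9.86 CPM under siRNA 1 and at 29.03 CPM under siRNA 2. The receptors NOTCH1 and NOTCH3 were at 40.9, 19.9 and 31.3 CPM and at 22.7, 10.9 and 25.4 CPM, and were named after their values were seen.

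Among Notch target genes, HES4, a transcriptional repressor, was at 16.4 CPM under the control siRNA, at 2.64 CPM under siRNA 1 and at 7.63 CPM under siRNA 2. NRARP, a feedback inhibitor of the pathway, was at 3.76, 0.836 and 1.04 CPM and HEYL, another repressor, at 16.2, 6.99 and 10.8 CPM. These target genes were lower with siRNA 2 too, while NOTCH3 was not. The transcription factor RBPJ and the inhibitor NUMB lay on the other side, with log2 ratios of 0.29 and 0.36, and were also named after their values were seen. With siRNA 2 the list's median was −0.31 against the shared control. Of the 27 members, 5 had a match in the 3′ UTR, JAG2 and HEYL among them. This is close to the share of all genes with a 3′ UTR that held any match, 20%.

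Lysosomal genes were also lower as a list. Of 48 measured enzymes and membrane proteins, 14 were at least 1.5-fold lower (29.2%), 4 of them at least 2-fold, and none was at least 1.5-fold higher. The median was −0.29, −0.11 with the GC trend removed and −0.06 with siRNA 2. Beside ARSB and TMEM9B, IDUA, which cleaves iduronic acid from dermatan and heparan sulfate, was at 12.5 CPM under the control siRNA, at 4.65 CPM under siRNA 1 and at 9.20 CPM under siRNA 2. CTNS, the lysosomal cystine exporter, was at 58.1, 28.2 and 51.0 CPM. For the proton pump of the same organelle, the 17 members had a median of 0.05, and 0.12 with the GC trend removed. Of these, 3 were at least 1.5-fold lower (17.6%, against 15.1% of all genes) and 1 higher.

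Tetraspanins other than the target were lower too. Of 23 measured family members, 7 were at least 1.5-fold lower (30.4%), TSPAN18 included, and none was at least 1.5-fold higher. The median was −0.39, −0.27 with the GC trend removed and −0.15 with siRNA 2. TSPAN12, a coreceptor of Norrin and Frizzled-4 signalling, was at 11.8 CPM under the control siRNA, at 4.38 CPM under siRNA 1 and at 11.2 CPM under siRNA 2. CD151, a partner of laminin-binding integrins, was at 149, 70.1 and 134 CPM, and TSPAN15, a partner of the protease ADAM10, at 31.6, 14.6 and 25.8 CPM. For these 3, siRNA 1 lay below both other libraries, which lay close together.

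Some genes of immune recognition were lower. Of 19 checkpoint ligands and receptors for immune cells, 5 were at least 1.5-fold lower (26.3%) and 1 higher. Their median was −0.32, −0.14 with the GC trend removed and −0.04 with siRNA 2. MICB, a stress ligand of the NKG2D receptor on natural killer cells, stood at 147 CPM under the control siRNA, at 43.5 CPM under siRNA 1 and at 93.7 CPM under siRNA 2. TNFSF9, the ligand of 4-1BB, was higher, at 27.5, 54.3 and 55.1 CPM. TAPBP, the tapasin that loads peptides on class I molecules, was at 545, 168 and 405 CPM, which is 30.9% of the control (29.9 to 31.9). The class I presentation list had a median of −0.26 over 20 members, with 3 at least 1.5-fold lower (15%, close to the 15.1% of all genes) and 0 higher, and of −0.08 with the GC trend removed.

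Wnt and TGF-beta pathway genes included negative regulators and receptors among the lower members. Of 34 Wnt genes, 7 were at least 1.5-fold lower (20.6%) and 1 higher. NKD1, a feedback inhibitor of Wnt signalling, was at 5.12 CPM under the control siRNA, at 0.501 CPM under siRNA 1 and at 2.39 CPM under siRNA 2, and NKD2, its paralogue, was at 23.2, 10.9 and 22.2 CPM. The Wnt coreceptor LRP5 was at 228, 119 and 181 CPM.

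In the TGF-beta and BMP list, 9 of 33 members were at least 1.5-fold lower (27.3%) and 1 higher, namely TGFB2. TGFBR2, the type II receptor of TGF-beta, was at 212 CPM under the control siRNA, at 108 CPM under siRNA 1 and at 244 CPM under siRNA 2. ID3, an inhibitor of helix-loop-helix factors that BMP induces, was at 105, 53.3 and 125 CPM. LTBP4, which holds latent TGF-beta in the matrix, was at 45.8, 22.8 and 52.0 CPM. All 3 were higher with siRNA 2 than in the control, and TGFBR2 and ID3 hold a match in the 3′ UTR. The medians of the Wnt and TGF-beta lists were −0.31 and −0.27, and −0.14 for both with the GC trend removed. With siRNA 2 they were −0.16 and −0.07.

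Target genes of ATF4 were higher as a list. ATF4, the transcription factor that acts when amino acids run short or the reticulum is stressed, has 29 measured target genes here, of which 12 were 1.5-fold or more above the control (41.4%) and 0 as far below it. The median was 0.50, and 0.59 with the GC trend removed. JDP2, a repressor of the AP-1 family, was at 14.9 CPM under the control siRNA, at 36.8 CPM under siRNA 1 and at 27.1 CPM under siRNA 2. TRIB3, a pseudokinase that ATF4 induces, was at 90.1, 186 and 229.8 CPM. The list's median with siRNA 2 was 0.61 against the same control, so the list stood above the control in both siRNA libraries. Aminoacyl-tRNA synthetases had a median of 0.29 over 20 members, and of 0.33 with siRNA 2. With siRNA 1, only 1 was 1.5-fold or more higher (5%, near the 4.43% of all genes) and 1 as far lower.

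Cell cycle and DNA repair genes were lower only in part. PCNA, the sliding clamp of DNA polymerases, stood at 126 CPM under the control siRNA, at 46.8 CPM under siRNA 1 and at 95.7 CPM under siRNA 2. POLD2, a subunit of polymerase delta, was at 145, 65.9 and 119 CPM, and CDKN1A, the p21 inhibitor of cyclin-dependent kinases, at 224, 97.1 and 161 CPM. Of 40 replication genes only 3 were at least 1.5-fold lower (7.5%), below the 15.1% of all genes. RBBP8, which starts the resection of DNA breaks, was at 114, 57.2 and 127 CPM. Mitosis genes had a median of 0.12 over 35 members, of 0.18 with the GC trend removed and of 0.00 with siRNA 2. Of these, 3 were 1.5-fold or more higher (8.57%, against 4.43% of all genes). The spindle motor KIF11, the 1 member as far lower, was at 167, 110.4 and 175 CPM.

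Among 27 integrin and focal adhesion genes 6 were at least 1.5-fold lower (22.2%) and 1 higher. Their median was −0.18, 0.00 with the GC trend removed and −0.29 with siRNA 2.

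Receptor kinases and heparan sulfate genes added single strong members. ERBB3, a receptor for neuregulins, was at 28.7 CPM under the control siRNA, at 11.7 CPM under siRNA 1 and at 30.9 CPM under siRNA 2. Of 23 receptor kinases, 6 were at least 1.5-fold lower (26.1%, against 15.1% of all genes) and 1 higher. Their median was −0.25, and 0.01 with the GC trend removed. HS6ST1, which sulfates heparan sulfate, was at 28.8, 10.0 and 7.96 CPM, whereas SDC4, a syndecan that carries the chains, was at 94.2, 213 and 170.0 CPM. Of 18 heparan sulfate genes, 6 were at least 1.5-fold lower (33.3%) and 1 higher. The median of that list was −0.39, and −0.14 with the GC trend removed.

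In the calcium list, which bears on the study's title, 6 of 36 members were at least 1.5-fold lower (16.7%) and 1 higher, close to the shares of all genes. The median was −0.07, and 0.05 with the GC trend removed. ATP2A3, which pumps calcium into the endoplasmic reticulum, stood at 12.04 CPM under the control siRNA, at 4.38 CPM under siRNA 1 and at 4.84 CPM under siRNA 2. CRACR2B, a regulator of store-operated calcium channels, was at 5.46, 1.70 and 2.89 CPM, and NFATC1, a transcription factor that calcium and calcineurin activate, at 12.4, 4.65 and 11.2 CPM. Of these, NFATC1 was low with siRNA 1 alone.

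The largest changes in abundance, as opposed to ratio, were mostly those of abundant genes. The losses were led by MT-CO1, a mitochondrially encoded oxidase subunit, at 17924 CPM under the control siRNA, at 15027 CPM under siRNA 1 and at 18046 CPM under siRNA 2. SRRM2, a scaffold of nuclear speckles, was at 1045, 490 and 959 CPM and HMGA1, a chromatin architectural protein, at 1464, 795 and 1181 CPM. RPLP0 and RPS2, ribosomal protein genes with processed pseudogenes that can share their reads, were also among the 10 largest losses, as were MT-ND4, MT-CO2, TAPBP, MCL1 and ITGA3. SRRM2 and TAPBP were the only genes of these 10 that were at least 2-fold lower.

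The gains in abundance were led by MT-RNR2, at 11191 CPM under the control siRNA, at 12869 CPM under siRNA 1 and at 14107 CPM under siRNA 2. The chaperone HSP90AA1 was at 1354, 2065 and 1730.2 CPM and CCT5, a subunit of the TRiC chaperonin, at 618, 927 and 807 CPM, where other genes overlap 30.1% of the exons. NCEH1, a hydrolase of cholesterol esters, was at 555, 935 and 379 CPM, higher than the control with siRNA 1 and lower with siRNA 2. ANKRD52, a subunit of the phosphatase PP6, was at 428, 742 and 440.1 CPM, and CAVIN1, a coat protein of caveolae, at 784, 1274 and 867 CPM. MT-ND1, MT-ND2, HSP90AB1 and GANAB made up the 10, and GANAB was the only one at least 2-fold higher. The heat shock and co-chaperone list had a median of 0.21 over 32 members, of 0.26 with the GC trend removed and of 0.22 with siRNA 2. In this list 3 members were at least 1.5-fold higher (9.38%, against 4.43% of all genes) and 0 lower.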

How the data were processed

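RNA of DU145 cells was sequenced in 3 libraries of read pairs. HISAT2 2.1.0, HTSeq 0.6.1, bcl2fastq 2.19.1 and build hg19 are named per the submitters' processing notes. Annotation release and strand setting were not given in the sources used here. As the result, the authors deposited 1 value per gene and library in CPM. Every value (100%) was a whole number of reads within 0.001 read. All were even except genes at 1 read (163, 178 and 97 in the control, siRNA 1 and siRNA 2 tables), so a pair was taken as 2 reads and a value of 1 read as a count of 0. A count of 0 allows up to 0.0998, 0.100 and 0.101 CPM (3 pairs).

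Samples were grouped by their labels, with 1 library per condition, so no count model was run, although read numbers could be recovered. Ratios are of log2(CPM + 1). Percentages of the control carry exact Clopper-Pearson intervals at 95% for counting error only, and PCR copies are not independent molecules. Scripts were tested on simulated data with 200 changed genes. GENCODE 29 on GRCh38, which is not the authors' build, gave GC content (99.8% of genes), exon overlap and the 3′ UTR of 1 transcript per gene by identifier, so no coordinates are given. The 3′ UTR groups and length classes were chosen after the data were seen. The GC trend was removed with a lowess curve (fraction 0.3). Median-of-ratios scaling used factors of 1.02, 0.942 and 1.04 for the control, siRNA 1 and siRNA 2 libraries. Computation used Python 3.11.15 with statsmodels 0.14.6, scipy 1.17.1, pandas 2.3.3, numpy 2.4.6 and matplotlib 3.10.9.

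The comparison and the 59 gene lists, 6 of them cell type markers, were chosen with earlier results of these data known. Of these, 1 list and 1 marker are not reported here. Named were TSPAN18, the 20 highest and 20 lowest ratios (genes averaging 5 CPM or more, leaving out pseudogenes and loci named by clone), the 15 highest and 15 lowest against both other libraries, the 10 largest gains and losses in CPM, up to 4 members of each list (mean of at least 2 CPM), the 5 highest and 5 lowest long non-coding genes and members of symbol families; others are marked.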

Additional observations from a re-analysis of the deposited data

Results flagged for a closer look

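TGFA, a ligand of the epidermal growth factor receptor, was at least 2-fold away from the control in opposite directions with the 2 siRNAs. Its log2 ratio to the control was 1.03 with siRNA 1 and −1.04 with siRNA 2. Its level was 94.3, 193 and 45.2 CPM in the control, siRNA 1 and siRNA 2 libraries. With the GC trend removed the siRNA 1 ratio was 1.36. With 1 library per siRNA the difference was not tested.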

How the results depend on the processing

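No paired analysis was possible because each condition had 1 library and the labels give no replicate number shared between conditions. No library could be left out for the same reason. With a pseudocount of 0.1 CPM in place of 1 CPM, 159 genes were at least 2-fold higher and 968 lower, 21 and 401 stood apart from both other libraries, and the TSPAN18 log2 ratio was −3.53. With 5 CPM these values were 50, 178, 4, 47 and −1.78. Median-of-ratios scaling gave 154 higher genes, and 26 higher and 125 lower apart from both. Removal of the GC trend gave 283 lower genes, and 22 and 98 apart from both; of the 189 lower genes apart from both, 94 kept a 2-fold difference, and with the scaling 125. No direction reversed among genes at least 2-fold away. No filter, a mean of at least 5 CPM, protein-coding genes only and 3′ UTRs of 200 to 3000 bases kept the counts within 1.5 times and the TSPAN18 and leading 3′ UTR values within their tolerance. Of 324 named genes, 195 moved beyond counting error with the GC trend removed and 148 with the scaling. Of 54 list medians, 29 and 48 moved by more than 0.1. The scaling shifts all genes the same way, with the median of all genes going from −0.10 to 0.01, so this common shift enters its counts. With 1 pair worth between 0.0333 and 0.0336 CPM, counting error limits genes near 1 CPM most. No setting measures the variation between cultures.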

Other observations

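Genes with symbols that start with SLC, mostly solute carriers, included many lower members. Of 219 measured, 28 were at least 2-fold lower (12.8%, against 4.25% of all genes) and 1 was higher. The SLC and NUDT families were picked for having among the largest shares of members at least 2-fold away from the control. Their shares are therefore a description only. SLC12A8, a cation-chloride cotransporter family member, stood at 18.8 CPM under the control siRNA, at 5.21 CPM under siRNA 1 and at 12.2 CPM under siRNA 2. SLC1A1, a glutamate transporter, was at 4.86, 0.936 and 2.89 CPM. SLC25A24, a mitochondrial carrier of ATP and phosphate, went the other way, at 44.5, 101 and 79.9 CPM. The family's median was −0.26, and −0.18 with the GC trend removed. Of 442 genes with ZNF symbols, 16 were at least 2-fold higher (3.62%, against 0.68% of all genes) and 6 lower, with a median of 0.09 with siRNA 1 and 0.23 with siRNA 2 against the shared control. Of 21 NUDT genes, which code for hydrolases of nucleoside diphosphates, 4 were at least 2-fold lower (19.0%), with a median of −0.32 that was −0.02 with the GC trend removed.

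Of 504 antisense genes 11 were at least 2-fold lower (2.18%) and 2 higher (0.397%), and of 384 lincRNA genes 7 were lower (1.82%) and 2 higher (0.521%). The shares of all genes were 4.25% and 0.68%. LOXL1-AS1 was at 10.1 CPM under the control siRNA, at 2.24 CPM under siRNA 1 and at 5.64 CPM under siRNA 2, and TMEM147-AS1 was at 14.0, 5.42 and 10.2 CPM. FBXL19-AS1 was at 8.88, 21.1 and 15.3 CPM. The strand setting of the counting is not given in the sources used here, so reads of these genes and of their partners on the other strand cannot be told apart.

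Single genes of other pathways were low with siRNA 1. STEAP1, a membrane protein abundant in prostate cancer, stood at 17.8 CPM under the control siRNA, at 5.55 CPM under siRNA 1 and at 15.6 CPM under siRNA 2. CBX2, a Polycomb protein, was at 11.8, 3.44 and 9.94 CPM, and the membrane metalloprotease MMP15 at 42.5, 16.0 and 32.5 CPM. KDELR3, which returns escaped proteins to the endoplasmic reticulum, was at 46.1, 18.8 and 41.5 CPM. All 4 were closer to the control with siRNA 2 than with siRNA 1.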
